A study of Mus musculus with 3 samples.

Results

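The translation initiation and elongation factors described here are the 49 genes, of 20574 gene symbols in all, whose symbols begin with Eif1 to Eif6, Eef1 or Eef2. They were measured by RNA sequencing in primary mouse peritoneal macrophages, with 1 library per condition. The first library came from macrophages kept for 5 h with apoptotic cells, at 5 apoptotic cells per macrophage, and those not engulfed were rinsed off. The second came from macrophages held for 5 h in LPS, the endotoxin of bacterial outer membranes, at 100 ng/ml. The remaining library was untreated, with no time in its labels, so treatment cannot be told apart from time or handling in comparisons with it. All 3 libraries are labelled WT and DMEM is the growth medium given. The labels read here name no strain, sex, age or number of animals, and no source for the apoptotic cells. Values are FPKM, a level scaled to transcript length and to the size of the library. With 1 library per condition there is no replicate check, and every difference given is between libraries, with no p-value.

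Translation initiation brings the small ribosomal subunit, the initiator transfer RNA and a messenger RNA together at a start codon. eIF2 carries the initiator transfer RNA, eIF3 is the many-subunit scaffold on the small subunit, and the eIF4 group recognises and unwinds the capped end of the messenger. eIF5 and eIF5B complete the joining of the subunits, after which eEF1A delivers each further transfer RNA and eEF2 moves the ribosome along. Phosphorylation of eIF2 under stress lowers general initiation and favours a few messengers, that of Atf4 among them. The 4E-binding proteins hold back the cap-binding protein until the mTOR kinase releases them. In macrophages both controls are known to shape which inflammatory proteins are made.

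Over the 15 factors above 0 in all 3 libraries, the highest value was a median of 1.70 times the lowest. Over the 2891 genes above 0 throughout that averaged 1 FPKM or more, that median was 2.42 times. The factors are mostly well-expressed genes, and spread was not compared with genes of matched level. Eif2d, a factor that can place the initiator transfer RNA without eIF2 and takes part in ribosome recycling, was lowest with LPS (2.60 FPKM, against 11.8 untreated). Eif4ebp1, the brake on cap binding, was lowest with apoptotic cells (29.9 FPKM) and highest with LPS (82.3 FPKM). Eif2s2, the beta subunit of eIF2, was lower with apoptotic cells (71.8 FPKM) than with LPS (176 FPKM). In deposited FPKM, Eif3b, Eif2s1, Eif4a3 and Eif2s3x had the narrowest ranges of the 15, at 1.09-fold, 1.16-fold, 1.25-fold and 1.25-fold. Under median-of-ratios scaling their log2 ratios of LPS to untreated were 0.74, 0.40, 0.40 and 0.29, in that order.

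Many values were listed as exactly 0. A 0 in these files can be a failed estimate, so a listed 0 is reported as such and ratios were formed only between libraries above 0. Of the 49 factors, 31 were above 0 with apoptotic cells, 32 with LPS and 25 in the untreated library. These are 63.3%, 65.3% and 51.0% of the factors, beside 38.7%, 38.1% and 32.8% of all genes. In all, 15 were above 0 in all 3 libraries, 30 in 1 or 2 of them, and 4 in none. Those 4 were Eef1a2, known as the muscle and neuron form of eEF1A, Eif4e1b, an oocyte relative of eIF4E, Eif2a and the Y-linked Eif2s3y. By share, 30.6% of the factors were above 0 in 3 libraries, 26.5% in 2, 34.7% in 1 and 8.16% in none. Over all genes these shares were 17.5%, 19.9%, 17.6% and 45.1%. Of the factors above 0 in both other libraries, 3 of 18 were listed at 0 with apoptotic cells, 2 of 17 with LPS and 8 of 23 in the untreated library. The matching shares of all genes were 18.6%, 21.9% and 38.6%, against 16.7%, 11.8% and 34.8% of the factors. GENCODE M21 annotates a median of 3 transcripts (range 1 to 12) for the 15 factors above 0 in all libraries, and of 6 (2 to 17) for the 17 above 0 in only 1. The same medians over all genes were 4 and 5 transcripts.

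**Figure D1:**
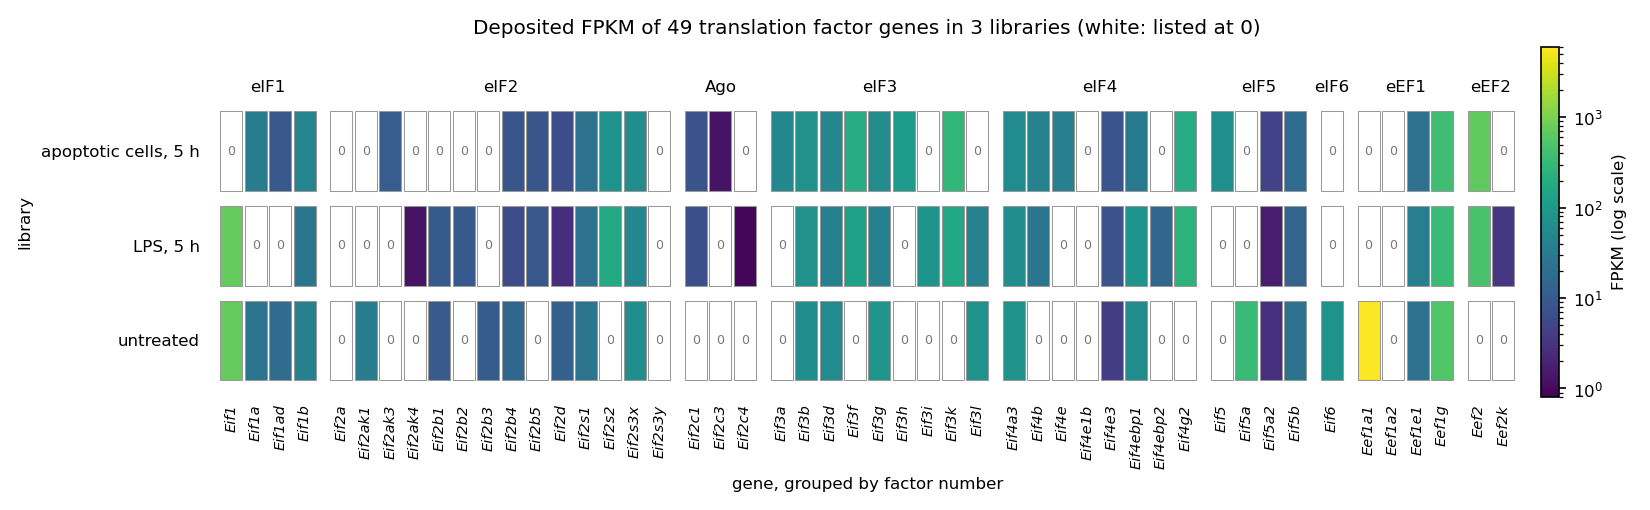
Deposited FPKM (colour, log scale) of the 49 factor genes (columns, grouped by factor number; Ago marks 3 Argonaute genes listed under older Eif2c symbols) in the 3 libraries (rows). White cells marked 0 are values listed at 0; the apoptotic-cell library has 18 of them, the LPS library 17 and the untreated library 24.

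Markers of other peritoneal cells were also measured. Of 7 macrophage markers set out for the check, only Csf1r and Cd14 were analysed here: their summed FPKM was 739.9 with apoptotic cells and 359.6 in the untreated library, while both were listed at 0 with LPS, so these markers could not check the label of that library. The summed level of 5 B-cell markers was 196, 161 and 646 FPKM in the apoptotic-cell, LPS and untreated libraries, with 4, 5 and 2 of them above 0. Untreated, Cd79a, Cd79b and Ms4a1 were listed at 0 and Ly6d (563 FPKM) made up most of the sum. Cd79a was also listed at 0 with apoptotic cells. In the apoptotic-cell, LPS and untreated libraries, 4 mast cell markers summed to 12.5, 9.23 and 84.8 FPKM. In the same order, 6 T-cell and thymocyte markers summed to 77.7, 1.10 and 13.5, and 4 neutrophil markers to 121, 224 and 51.0. Nearly all of the neutrophil sums was S100a8, at 116, 222 and 48.1 FPKM. The 4 mesothelial and fibroblast markers summed to 1.70, 1.13 and 17.8 FPKM. The T-cell and thymocyte sum was highest with apoptotic cells. The B-cell, mast cell and mesothelial sums were highest in the untreated library. So were 9 of the 15 factors above 0 throughout, beside 48.7% of all genes above 0 throughout that averaged 1 FPKM or more. Sums that include listed zeros do not compare the libraries. The part of these cell types in the differences below was not tested. In bulk RNA, fewer cells of a type and less RNA per cell cannot be told apart.

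Depth is not stated. The spacing of the lowest values of genes with 1 annotated transcript implies that 1 FPKM on 1000 bases of countable transcript stood for about 3.45 reads with apoptotic cells, 3.12 with LPS and 3.23 in the untreated library. Read numbers below are estimates from that spacing and the median length of each gene's RefSeq-linked transcripts. The 95% intervals given with them are exact Clopper-Pearson intervals on those estimates, stated for the log2 of the plain FPKM ratio, and cover counting error only. Levels and their order are given in FPKM as deposited, and factors whose direction turns under median-of-ratios scaling are named with each comparison.

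Among the factors above 0 in each library, the highest level was that of Eef2 with apoptotic cells, Eif1 with LPS and Eef1a1 untreated. Eif1 was listed at 0 with apoptotic cells, and Eef1a1 and Eef2 at 0 elsewhere, as given below. The leading factor can thus not be compared between libraries. Eef1a1, which encodes the transfer RNA carrier, had 5641 FPKM in the untreated library, rank 1 of all genes there, and was listed at 0 in the apoptotic-cell and LPS libraries. That value made up most of the 8019 FPKM that all factors summed to in the untreated library, 4.01% of its total, against 1.35% with apoptotic cells and 1.45% with LPS. These sums therefore do not compare the factors between libraries. Eef2, the translocase, stood at 682 with apoptotic cells and 466 FPKM with LPS, and was listed at 0 in the untreated library. The log2 ratio of apoptotic cells to LPS, on the log2(FPKM + 1) scale used throughout, was 0.55. Eef2k, the kinase that switches eEF2 off, was above 0 only with LPS, at 3.25 FPKM, from about 28 reads.

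Eef1g, the gamma subunit of the exchange complex that recharges eEF1A, was the only elongation factor proper above 0 in all libraries. It stood at 387 FPKM with apoptotic cells, 335 with LPS and 529 FPKM in the untreated library, so both treated libraries were lower. Its log2 ratios to the untreated library were -0.45 with apoptotic cells and -0.66 with LPS. Under median-of-ratios scaling the LPS value was -0.03. Eef1e1, whose product sits in the multi-synthetase complex of aminoacyl-tRNA enzymes in spite of its name, showed another order. It stood at 21.4 (apoptotic cells), 35.6 (LPS) and 21.7 FPKM (untreated), and LPS alone stood out. The log2 ratio to the untreated library was 0.69 with LPS (interval 0.42 to 1.01) and -0.02 with apoptotic cells (interval -0.35 to 0.30).

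The eIF1 group supports scanning for the start codon. Eif1 was listed at 731 FPKM with LPS, 719 FPKM untreated and 0 with apoptotic cells. Both values above 0 were nearly equal as deposited (log2 ratio of LPS to untreated 0.03), but under median-of-ratios scaling the ratio was 0.65. Eif1b, its close relative, stood at 44.7, 26.2 and 38.6 FPKM in the apoptotic-cell, LPS and untreated libraries, lowest with LPS. Eif1a was listed at 31.8 with apoptotic cells and 25.3 FPKM untreated, and at 0 with LPS. Eif1ad, a relative of Eif1a that acts in maturation of the small subunit in human cells, stood at 8.90 with apoptotic cells and 18.1 FPKM untreated, and was listed at 0 with LPS. Its log2 ratio of -0.95 was the lowest among the factors for apoptotic cells against untreated, just short of 2-fold on this scale, and -1.02 with a pseudocount of 0.1.

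The 3 subunits of eIF2 did not stand at 1 level. Eif2s1, the alpha subunit that stress kinases phosphorylate, was listed at 23.2 (apoptotic cells), 21.8 (LPS) and 25.3 FPKM (untreated). Eif2s3x, the gamma subunit, was listed at 59.1, 51.4 and 64.5 FPKM in the same order. For both, the untreated FPKM was highest and the spread small, at 1.16-fold and 1.25-fold from lowest to highest. Eif2s2, the beta subunit on chromosome 2 (mm10, 154871410 to 154892935), was listed at 71.8 FPKM with apoptotic cells, 176 with LPS and 0 untreated. Its log2 ratio for apoptotic cells against LPS was -1.28, from about 537 and 1219 reads (interval -1.44 to -1.14), while those of Eif2s1 and Eif2s3x were 0.08 and 0.20 (-0.31 and -0.21 under median-of-ratios scaling). The subunits measured in both of those libraries thus differed by unequal amounts.

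eIF2B recharges eIF2 with GTP and is the enzyme that phosphorylated eIF2 blocks. Of its 5 subunits, only Eif2b4 was above 0 in all libraries. Eif2b4 (chromosome 5, 31187558 to 31193430) stood at 8.74 (apoptotic cells), 6.44 (LPS) and 14.9 FPKM (untreated), the untreated library being highest. The log2 ratio of LPS to untreated was -1.09, from about 33 and 82 reads (interval -1.83 to -0.60). It was -0.53 under median-of-ratios and -0.94 under upper-quartile scaling, and -0.80 with a pseudocount of 5, each short of 2-fold. Eif2b1 stood at 9.59 FPKM with LPS and 10.1 FPKM untreated, and Eif2b5, the catalytic subunit, at 8.75 with apoptotic cells and 8.98 FPKM with LPS. These 2 pairs were close to level as deposited (log2 ratios -0.07 and -0.03), and stood at 0.50 and -0.40 under median-of-ratios scaling. Eif2b2 was above 0 only with LPS (9.18 FPKM) and Eif2b3 only in the untreated library (10.4 FPKM).

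Of the eIF2 kinase genes Eif2ak1, Eif2ak3 and Eif2ak4 each was above 0 in 1 library only, and a different one each time; Eif2ak2 is not analysed here. Eif2ak1, the haem-regulated kinase, had 32.5 FPKM in the untreated library. Eif2ak3, known as PERK, the kinase of endoplasmic reticulum stress, was listed at 10.8 FPKM with apoptotic cells. Eif2ak4, known as GCN2, the amino acid sensor, was listed at 1.24 FPKM with LPS. With a 0 in each of the other libraries, none of these kinases can be compared. The 3 genes under the older names Eif2c1, Eif2c3 and Eif2c4 encode Argonaute proteins of the small RNA pathway and match the rule by symbol only. Eif2c1 stood at 7.74 with apoptotic cells and 6.76 FPKM with LPS, and the others reached at most 1.25 FPKM in a single library.

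Eif2d on chromosome 1 (131153181 to 131187658) showed the widest spread of the 15 factors above 0 in all libraries. It stood at 6.26 (apoptotic cells), 2.60 (LPS) and 11.8 FPKM (untreated), 4.56-fold from lowest to highest. The log2 ratio of LPS to untreated was -1.83, from about 14 and 70 reads (interval -3.16 to -1.37). It kept at least 2-fold in all 9 alternatives that gave a value, from -2.15 to -1.15. Of these, only changes of pseudocount or scaling could move it. For apoptotic cells against untreated it was -0.82 (interval -1.53 to -0.32), and for apoptotic cells against LPS 1.01 (0.38 to 2.30). The last value was under 2-fold with a pseudocount of 5 (0.57), median-of-ratios scaling (0.70) and upper-quartile scaling (0.91).

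Of 9 genes for eIF3 subunits, 7 were above 0 with apoptotic cells, 7 with LPS and 4 in the untreated library. Eif3b, a core subunit, had the narrowest FPKM range of the 15 factors above 0 throughout, at 69.4 (apoptotic cells), 69.6 (LPS) and 64.0 FPKM (untreated). Under median-of-ratios scaling its log2 ratio of LPS to untreated was 0.74. Eif3d, the subunit that can bind the cap of some messengers, stood at 49.999, 38.9 and 57.9 FPKM in the same order. Eif3g, which binds RNA during scanning, stood at 58.5, 39.4 and 84.5 FPKM. Both Eif3d and Eif3g were thus lowest with LPS and highest untreated. Eif3g (chromosome 9, 20894349 to 20898623) had a log2 ratio of -1.08 for LPS against untreated, from about 96 and 232 reads (interval -1.45 to -0.74). It was -0.47 under median-of-ratios and -0.91 under upper-quartile scaling, both short of 2-fold.

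The remaining eIF3 genes were listed at 0 somewhere. Among the eIF3 genes above 0, Eif3k and Eif3f, outer subunits, had the highest levels with apoptotic cells and with LPS. Eif3k stood at 284 with apoptotic cells and 162 FPKM with LPS (log2 ratio 0.81), and Eif3f at 208 and 129 FPKM (0.69), with both listed at 0 untreated. Eif3l stood at 41.8 FPKM with LPS and 71.9 FPKM untreated (-0.77) and was listed at 0 with apoptotic cells. Eif3a, the largest subunit, and Eif3h were above 0 only with apoptotic cells, at 51.7 and 105 FPKM, and Eif3i only with LPS, at 81.0 FPKM. For apoptotic cells against LPS, the 5 measured subunits ran from -0.00 for Eif3b through 0.36 for Eif3d and 0.56 for Eif3g to Eif3f and Eif3k. Under median-of-ratios scaling Eif3b and Eif3d lay below 0, at -0.41 and -0.05, and the other 3 above. Within a library the subunit levels per length differed by 5.69-fold with apoptotic cells, 4.17-fold with LPS and 1.46-fold in the untreated library, where only 4 were above 0.

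In the eIF4 group the cap brake differed most among genes above 0 throughout. Eif4ebp1 on chromosome 8 (27260329 to 27276674) stood at 29.9 (apoptotic cells), 82.3 (LPS) and 58.8 FPKM (untreated), so the untreated level lay between the treated ones. The log2 ratio was -0.95 for apoptotic cells against untreated (about 168 and 331 reads, interval -1.24 to -0.70) and 0.48 for LPS against untreated (430 and 331 reads, 0.28 to 0.70). For apoptotic cells against LPS it was -1.43 (interval -1.72 to -1.19), the lowest of the 23 factors in that comparison. It was at least 2-fold lower in all 10 alternatives (-1.83 to -1.32), of which only changes of pseudocount or scaling could move it. The LPS value was 1.09 under median-of-ratios scaling. Eif4ebp2, its relative, was above 0 only with LPS, at 15.2 FPKM. Eif4e, the cap-binding protein that these brakes hold, was above 0 only with apoptotic cells, at 37.5 FPKM, so the balance of brake to target cannot be given.

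Eif4e3, a lower-expressed member of the cap-binding family, was higher in both treated libraries. It stood at 8.25 (apoptotic cells), 7.66 (LPS) and 3.93 FPKM (untreated), from about 61, 52 and 29 reads. Its log2 ratios to the untreated library, 0.91 (interval 0.40 to 1.75) and 0.81 (0.25 to 1.64), were the highest of any factor in both comparisons. Both were short of 2-fold on the log2(FPKM + 1) scale. The plain FPKM ratio was above 2-fold with apoptotic cells and below it with LPS. The apoptotic-cell value was 1.05 with a pseudocount of 0.1, and also 1.05 at a common sum of 1000000. The LPS value stayed short of 2-fold in those settings. Both log2 ratios passed 2-fold under median-of-ratios scaling, at 1.07 and 1.34. Eif4a3, the helicase of the exon junction complex, stood at 57.4 (apoptotic cells), 61.7 (LPS) and 71.8 FPKM (untreated), nearly level as deposited. Its log2 ratio of apoptotic cells to LPS was -0.10, and -0.51 under median-of-ratios scaling. Eif4b, which stimulates the cap helicase, stood at 40.7 with apoptotic cells and 25.8 FPKM with LPS (log2 ratio 0.64). Eif4g2, a scaffold for cap-independent initiation, stood at 205 and 248 FPKM (-0.27), and both genes were listed at 0 untreated.

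Among the late factors, Eif5b, which joins the subunits, stood at 17.2 (apoptotic cells), 13.8 (LPS) and 24.3 FPKM (untreated), highest untreated. Its log2 ratios to the untreated library were -0.47 (interval -0.68 to -0.32) and -0.77 (-1.02 to -0.62). Eif5a2, the less widespread form of the hypusine-bearing factor eIF5A, stood at 4.66, 1.61 and 2.78 FPKM, from about 75, 24 and 43 reads. Apoptotic cells were highest and LPS lowest, with a log2 ratio of 1.12 between them (interval 0.84 to 2.25) that was 0.55 with a pseudocount of 5 and 0.84 under median-of-ratios scaling. Eif5a itself (343 FPKM) and Eif6, which keeps the large subunit apart until needed (74.3 FPKM), were above 0 only in the untreated library. Eif5, the GTPase activator of eIF2, was above 0 only with apoptotic cells, at 65.0 FPKM.

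**Figure D2:**
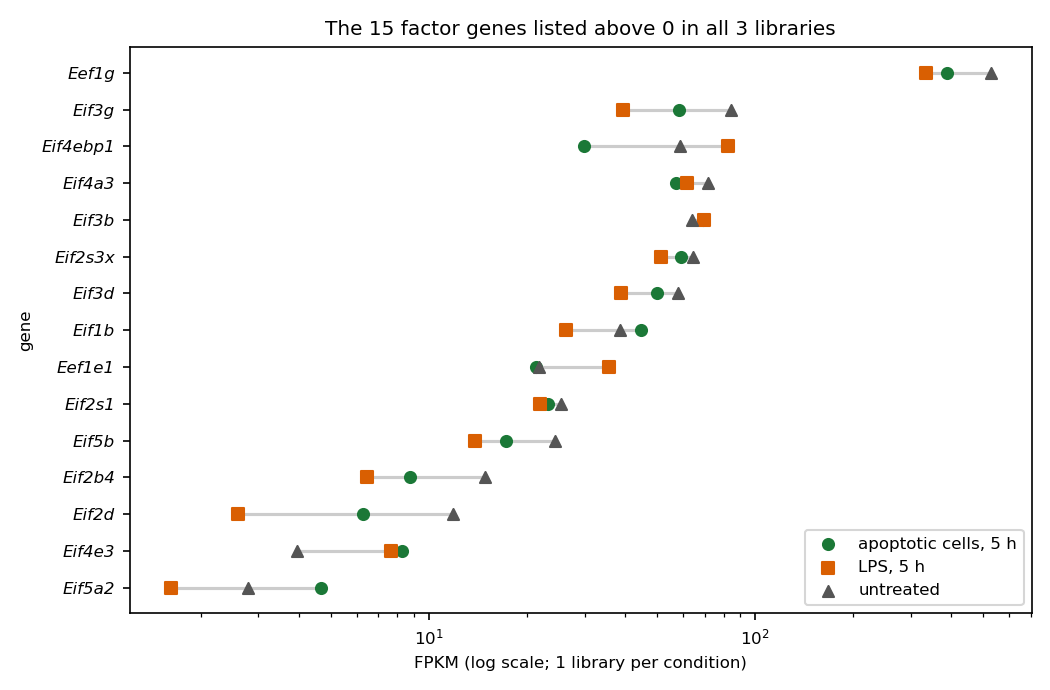
FPKM (log axis) of the 15 factor genes above 0 in all 3 libraries, 1 point per library. Eif3b spans 1.09-fold and Eif2d 4.56-fold. In deposited FPKM 10 of the 15 are lowest with LPS, as are 53.3% of all genes above 0 throughout that average 1 FPKM or more. The untreated library is highest for 9, and for 48.7% of those genes. Under median-of-ratios scaling only Eif2b4, Eif2d, Eif3g and Eif5a2 are lowest with LPS.

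Set beside all genes averaging 1 FPKM or more, the factors kept within a narrow band. Spread was not compared with genes of matched level. For apoptotic cells against untreated, 17 factors were above 0 in both libraries, all averaging 1 FPKM or more across the 3. None was at least 2-fold higher and none at least 2-fold lower (0 of 17 each), against 12.4% and 16.4% of the 3369 genes compared. At 1.5-fold, 1 was higher and 4 were lower, against 22.1% and 30.3% of all genes. The median log2 ratio of the factors was -0.21 and that of all genes -0.13. The interquartile range of the factors was 0.64 on the log2 scale, against 1.22 for all genes. Median-of-ratios scaling moved the all-gene median to 0.06, with 16.1% of genes higher and 12.5% lower, and the factor median to 0.01. Under it Eif2s1 (0.08), Eif2s3x (0.09), Eif3d (0.01) and Eef1e1 (0.18) lay above 0 and Eif4e3 (1.07) was at least 2-fold higher. With a pseudocount of 0.1 in place of 1, Eif4e3 (1.05) was at least 2-fold higher and Eif1ad (-1.02) at least 2-fold lower. The shares of all genes were then 15.1% and 21.7%.

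For LPS against untreated, 0 of 18 factors were at least 2-fold higher and 3 were at least 2-fold lower, Eif2d, Eif2b4 and Eif3g. The shares of all 3421 genes were 8.51% and 26.2%, so 3 of 18 (16.7%) is no excess over the background. At 1.5-fold, 2 factors were higher and 6 lower, against 15.9% and 42.7% of all genes. The factor median was -0.43 and that of all genes -0.40. The interquartile range was 0.74 for the factors and 1.26 for all genes. Under median-of-ratios scaling both medians were above 0, at 0.18 and 0.12, and 19.1% of genes were higher and 12.8% lower, with 3 factors at least 2-fold higher (Eif4e3, Eef1e1 and Eif4ebp1) and only Eif2d at least 2-fold lower. Of the factors below 0 without it, Eif1b, Eif2b1, Eif2s1, Eif2s3x, Eif3d and Eif4a3 lay above 0 under that scaling, at 0.05 to 0.50.

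For apoptotic cells against LPS, 23 factors could be compared, of which 2 were at least 2-fold higher (Eif2d and Eif5a2) and 2 at least 2-fold lower (Eif4ebp1 and Eif2s2). The shares of all 4599 genes were 15.7% and 5.54%, against 8.70% of the factors in each direction. At 1.5-fold, 6 were higher and 3 lower, against 33.4% and 10.8% of all genes. Medians were 0.21 for the factors and 0.32 for all genes, and -0.19 and -0.02 under median-of-ratios scaling, where 9.04% of genes were higher and 9.73% lower. Eef1g, Eif2c1, Eif2s1, Eif2s3x, Eif3d, Eif4e3 and Eif5b then lay below 0, at -0.31 to -0.05, and above 0 without it. Eif3b, at -0.00, was at 0.02 when all libraries were set to 1 sum, and Eef1e1 reached -1.11 under median-of-ratios scaling. The comparisons share libraries, so their ratios are not independent of each other.

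**Figure D3:**
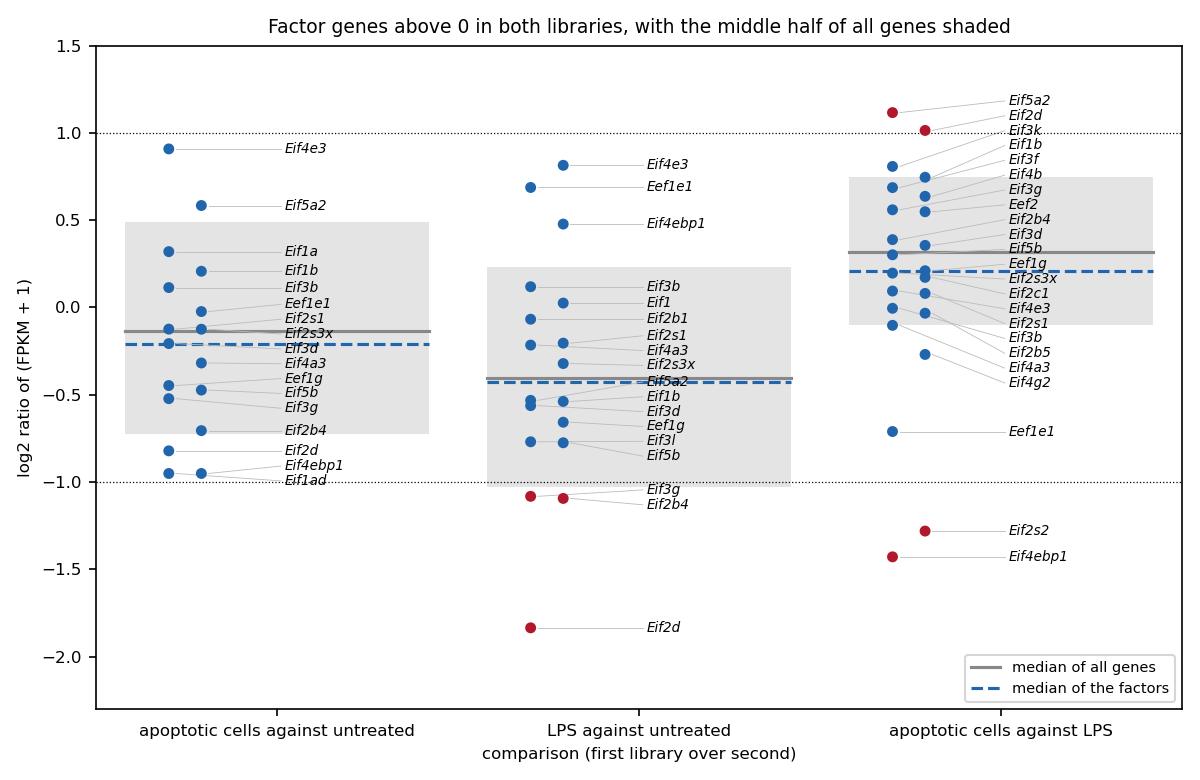
Log2 ratio of (FPKM + 1) for each factor above 0 in both libraries of each comparison (points; red, at least 2-fold, marked by dotted lines). Shading spans the quartiles of all genes and lines are medians; the medians of the factors, -0.21, -0.43 and 0.21, lie close to those of all genes, -0.13, -0.40 and 0.32.

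The factors are mostly well-expressed genes, and the background differed with level. Among genes averaging 20 FPKM or more, a limit chosen after the values were seen, the median for apoptotic cells against untreated was -0.17 over 10 factors and 0.22 over 893 genes. For LPS against untreated it was -0.27 over 12 factors and 0.04 over 924 genes, and for apoptotic cells against LPS 0.20 over 16 factors and 0.28 over 996 genes. Over the 15 factors above 0 in every library, the highest value was a median of 1.70 times the lowest, against 2.42 times over 2891 genes above 0 throughout that averaged 1 FPKM or more. The highest value was within 2-fold of the lowest for 9 of the 15 factors (60%) and for 37.4% of those genes. In deposited FPKM, LPS was the lowest library for 10 of the 15 and for 53.3% of the genes. The untreated library was the highest for 9 and for 48.7%. None of these shares was tested. Under median-of-ratios scaling only Eif2b4, Eif2d, Eif3g and Eif5a2 of the 15 were lowest with LPS. Only Eef1g, Eif2b4, Eif2d, Eif3g and Eif5b were then highest untreated.

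Other genes of the pathway were taken from a list of 38, of which 29 were analysed here. For apoptotic cells against untreated, 12 could be compared, with 0 at least 2-fold higher and 3 lower, against 12.4% and 16.4% of all genes. For LPS against untreated, 0 of 11 passed 2-fold in either direction, against 8.51% higher and 26.2% lower. Between apoptotic cells and LPS, 0 of 21 were higher and 2 lower, against 15.7% and 5.54%. The genes that passed lie next to eIF2 and the poly(A) tail. Atf4, the transcription factor whose messenger is translated when eIF2 is phosphorylated, stood at 64.8 (apoptotic cells), 240 (LPS) and 245 FPKM (untreated). Ppp1r15a, which directs the phosphatase that restores eIF2, stood at 9.49, 48.0 and 44.0 FPKM. Both were low with apoptotic cells only, with log2 ratios to the untreated library of -1.90 and -2.10. Paip2, an inhibitor of the poly(A)-binding protein, stood at 26.6 with apoptotic cells and 55.1 FPKM untreated (-1.02), and was listed at 0 with LPS. Eif4ebp1, a known target of ATF4, stood at 29.9 (apoptotic cells), 82.3 (LPS) and 58.8 FPKM (untreated), also lowest with apoptotic cells. A link between Atf4 and Eif4ebp1 was not tested. The ratios of the pathway genes were taken on deposited FPKM only.

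**Figure D4:**
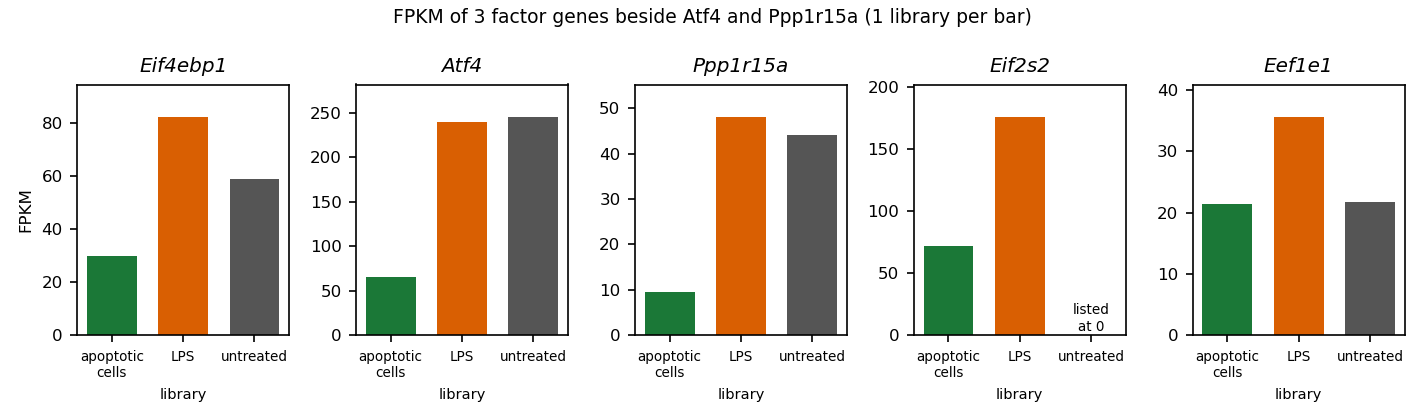
FPKM of Eif4ebp1, Atf4, Ppp1r15a, Eif2s2 and Eef1e1 (bars from 0, 1 library each). Apoptotic cells give the lowest bar for the first 3 genes (29.9, 64.8 and 9.49 FPKM); Eif2s2 is listed at 0 in the untreated library and Eef1e1 is highest with LPS (35.6 FPKM).

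On the log2(FPKM + 1) scale the rest of the list differed by less than 2-fold wherever it could be compared, and the genes given here were picked after their values were seen. The release factor gene Etf1 stood at 37.6 (apoptotic cells), 52.1 (LPS) and 45.3 FPKM (untreated), and Gspt1, its GTPase partner, at 19.7, 16.0 and 19.6 FPKM. Rheb, the GTPase that turns on mTOR, stood at 73.0, 105 and 57.5 FPKM, highest with LPS (log2 ratio to untreated 0.86). Mtor itself stood at 2.23 with apoptotic cells and 2.46 FPKM with LPS and was listed at 0 untreated. Of the mitochondrial factors, Tufm, the organelle's counterpart of eEF1A, stood at 54.7, 36.0 and 36.7 FPKM, and its exchange factor gene Tsfm at 13.3, 6.28 and 8.999 FPKM. Both were highest with apoptotic cells. Dhps, which begins the hypusine modification of eIF5A, stood at 17.1, 19.4 and 13.1 FPKM.

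Promoters are shown for the 3 factors at least 2-fold lower with LPS than untreated and for 5 factors that share a motif. RefSeq (GRCm38.p6) gave a start-site sequence of 250 bases before and 50 after the start for 36 of the 49 factors, Eif4ebp1 not among them. That of Eif2s2, which holds no CACGTG, is not printed. CACGTG, the E-box of the MYC and TFE families, which reads the same on both strands, was found in 11 of 45 factor promoters (24.4%) and in 7.15% of all 32851. The promoters with it belong to 9 factors: Eef2, Eef2k, Eif1b, Eif3a, Eif3f, Eif3k, Eif4e, Eif5a and Eif5a2. TGATGNAA, a form of the element bound by ATF4 with its partners, searched on both strands, was found in 2 of 45 (4.44%), against 3.97% of all. A C followed by at least 4 pyrimidines, beginning within 5 bases of the start as in terminal oligopyrimidine messengers, was found in 13 of 45 (28.9%), against 18.3% of all. Each stretch below covers 150 bases before and 20 after the start, in lower case with CACGTG in capitals. The first 3 were at least 2-fold lower with LPS than untreated and hold no CACGTG in the window searched.
Eif2d: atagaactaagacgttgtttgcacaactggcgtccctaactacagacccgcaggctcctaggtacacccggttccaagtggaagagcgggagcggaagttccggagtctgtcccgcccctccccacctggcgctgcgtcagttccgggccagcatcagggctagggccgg
Eif2b4: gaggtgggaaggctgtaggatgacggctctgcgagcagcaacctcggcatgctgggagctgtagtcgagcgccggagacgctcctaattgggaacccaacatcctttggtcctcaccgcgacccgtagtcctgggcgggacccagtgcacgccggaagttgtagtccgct
Eif3g: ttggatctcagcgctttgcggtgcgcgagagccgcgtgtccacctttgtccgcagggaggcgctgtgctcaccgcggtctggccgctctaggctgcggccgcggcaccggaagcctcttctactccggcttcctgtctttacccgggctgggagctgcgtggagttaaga

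The next 5 are the factors that hold CACGTG and were above 0 both with apoptotic cells and with LPS.
Eif5a2: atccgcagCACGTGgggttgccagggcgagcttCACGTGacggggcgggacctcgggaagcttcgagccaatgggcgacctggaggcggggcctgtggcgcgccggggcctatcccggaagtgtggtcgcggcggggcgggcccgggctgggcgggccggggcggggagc
Eef2: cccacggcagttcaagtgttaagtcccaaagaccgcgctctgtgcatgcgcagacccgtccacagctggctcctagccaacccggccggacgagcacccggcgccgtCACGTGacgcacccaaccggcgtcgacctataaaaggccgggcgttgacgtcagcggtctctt
Eif3f: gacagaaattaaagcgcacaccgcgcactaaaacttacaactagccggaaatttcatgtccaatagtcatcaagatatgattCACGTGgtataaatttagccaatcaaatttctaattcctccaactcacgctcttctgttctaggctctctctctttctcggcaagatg
Eif3k: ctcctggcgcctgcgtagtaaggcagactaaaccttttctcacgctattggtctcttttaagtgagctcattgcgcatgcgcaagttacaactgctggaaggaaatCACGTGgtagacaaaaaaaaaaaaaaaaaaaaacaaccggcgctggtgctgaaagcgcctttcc
Eif1b: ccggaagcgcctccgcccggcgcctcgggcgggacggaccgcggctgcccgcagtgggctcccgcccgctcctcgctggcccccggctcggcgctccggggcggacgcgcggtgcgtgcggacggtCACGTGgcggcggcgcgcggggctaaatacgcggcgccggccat

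In order, these 8 stretches lie at chr1:131153057-131153226 (plus strand), chr5:31193120-31193289 (minus strand), chr9:20898571-20898740 (minus strand), chr3:28781127-28781296 (plus strand), chr10:81176481-81176650 (plus strand), chr7:108934265-108934434 (plus strand), chr7:28981869-28982038 (minus strand) and chr9:120492456-120492625 (plus strand). Counted from the start, Eif5a2 holds the motif at 2 places, -142 and -117. It begins at -43 in Eef2, -68 in Eif3f, -44 in Eif3k and -24 in Eif1b. All 5 were higher with apoptotic cells than with LPS, with log2 ratios from 0.55 to 1.12 and a median of 0.75, while 30.4% of all 4599 genes lay below 0 and their median was 0.32. Of the 13 factors compared whose promoters lack the motif, 8 were above 0, from -1.28 to 1.01 with a median of 0.20. The 5 also stayed above 0 under median-of-ratios scaling, Eef2 least at 0.14, and of the 13 then 4 were above 0, with a median of -0.21. The motif was set against the ratios with the values known, so this is a description with no test, and a match is not a bound site.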

How the data were processed

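RNA from primary mouse peritoneal macrophages was sequenced in 3 libraries, 1 per condition. The tools in the submitters' processing notes are Cufflinks 2.2.1 with Cuffdiff, TopHat2 2.1.0 and cutadapt 1.14, on mm10. The deposited values were taken as FPKM, made by the authors, since these notes name Cufflinks and no label gives the unit. No source used here gives their options, annotation or strandedness, so reads of antisense genes and of near-identical copies (Eef1a1, Eif1 and Eif5a have many) may not be separated.

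Ratios are log2((FPKM + 1) / (FPKM + 1)), which understates the change of low genes, over genes above 0 in both libraries with a mean of at least 1 FPKM. A difference of at least 2-fold was counted. Depth was estimated from the steps of low values of genes with 1 GENCODE M21 transcript, with 375, 325 and 250 bases taken off the length in the apoptotic-cell, LPS and untreated libraries. RefSeq synonyms matched the Eif2c symbols to Ago genes. Named were all members above 0 in all libraries, at least 2-fold apart, or listed at 0 beside at least 50 FPKM; further members and pathway genes under 2-fold were named after their values were seen. Besides the 5 macrophage markers not analysed here, 1 marker gene is not reported. Members and lists were chosen with earlier results of these data known. Ratio and depth steps were tested on simulated data. Python 3.11.15, pandas 2.3.3, scipy 1.17.1 and matplotlib 3.10.9 were used. Alternatives are given in the closing section.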

Additional observations from a re-analysis of the deposited data

How the results depend on the processing

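With apoptotic cells against untreated, the count of factors at least 2-fold higher, reported as 0, was 1 with a pseudocount of 0.1, a common sum of 1000000, median-of-ratios scaling or a 1.5-fold threshold, and 13 with 0 as a value. The count lower, also 0, was 1 with a pseudocount of 0.1, 4 at 1.5-fold and 8 with 0 as a value. With LPS against untreated, the count higher, reported as 0, was 3 under median-of-ratios scaling, 2 at 1.5-fold and 12 with 0 as a value. The count lower, reported as 3, was 1 under median-of-ratios and under upper-quartile scaling, 6 at 1.5-fold and 10 with 0 as a value. With apoptotic cells against LPS, the count higher, reported as 2, was 0 with a pseudocount of 5 or median-of-ratios scaling, 1 with a mean of at least 5 FPKM or upper-quartile scaling, 6 at 1.5-fold and 9 with 0 as a value. The count lower, also 2, was 3 under median-of-ratios scaling, which adds Eef1e1, or at 1.5-fold, 1 over genes above 0 in all libraries, since Eif2s2 is then left out, and 9 with 0 as a value.

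Median-of-ratios scaling moved the factor median to 0.18 for LPS against untreated and -0.19 for apoptotic cells against LPS, with all genes at 0.12 and -0.02. The cause was not tested. Of 543 single-factor values under the alternatives, 502 moved by no more than counting error and 41 by more. Each of the 41 came under median-of-ratios or upper-quartile scaling. The 502 include many values that could not move, since limits on the mean or on listed zeros leave a single ratio unchanged. No factor at least 2-fold apart changed sign. Among factors with a ratio, depth limits Eif2d and Eif5a2 with LPS most, at about 14 and 24 reads. No paired analysis was possible because each condition has 1 library, and for the same reason no replicate could be left out.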
